A study of Mus musculus with 15 samples.

Results

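The genes examined were 10 cytosolic chaperones and chaperone partners of the heat shock response, Hspa1a, Hspa1b, Hspa8, Hsph1, Hsp90aa1, Dnajb1, Hspb1, Hspb7, Cryab and Bag3. They were taken by symbol, and all 10 matched 1 Ensembl gene each among the 55450 genes counted. All 10 also passed the filter on low counts that left 16920 genes for testing. RNA was sequenced from the gastrocnemius, a mixed calf muscle, of 15 female C57BL/6JN mice older than 17 months. Low Control (n = 4) and Low Run (n = 4) mice had at most 1 positive frailty marker and are labelled robust in the deposited data, and High Control (n = 3) and High Run (n = 4) mice had at least 2 and are labelled frail. Run mice ran downhill on a treadmill in 2 bouts, with a slope of 22 degrees and a speed of 13 m/min, and their muscle was taken 24 h later, while Control mice stayed in their cages. The frailty markers were set by cut-offs within the cohort itself, the labels name no transgene, and each library came from 1 mouse. The comparison asked whether the chaperone genes differed after lengthening exercise, and whether that difference depended on frailty.

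Heat shock factor 1 drives this gene group when unfolded protein builds up, by binding heat shock elements, which are inverted repeats of the unit GAA. Hsp70 proteins (Hspa1a, Hspa1b and Hspa8) bind exposed stretches of protein, J-domain partners such as Dnajb1 start their ATP cycle, and the Hsp110 protein Hsph1 exchanges their nucleotide. In contracting muscle, small heat shock proteins (Hspb1, Hspb7 and Cryab) hold filamin, desmin and titin, and Bag3 couples Hsp70 to small heat shock proteins for the disposal of damaged filamin by chaperone-assisted selective autophagy.

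Promoter windows of RefSeq on GRCm38.p6, from 250 bases before to 50 after each start site, were at hand for 7 of the 10 genes, in 9 windows. A heat shock element of 2 units (GAANNTTC or TTCNNGAA, which each read the same on both strands) lay in 6 of these 9 windows, against 15.06% of all 32851 windows. An element of 3 units (GAANNTTCNNGAA or TTCNNGAANNTTC, of which every match also holds the shorter motifs) lay in 2 of the 9 windows, both of Hsph1, against 0.6027% of all windows. The 2 windows of Hsph1 overlap and hold the same element. Counted by gene, 5 of 7 held an element of 2 units and 1 of 7 an element of 3 units. The shares of all windows are per window and not per gene. The stretches upstream of the start of Hspa1a (chr17:34972157-34972406, minus strand), Hspa1b (chr17:34959239-34959488, minus strand) and Hspb1 (chr5:135887669-135887918, plus strand) are shown because they hold the motif of 2 units. That of Hspb7 (chr4:141420529-141420778, plus strand), the gene with the largest difference between groups among the 10, is shown because it holds none. The stretch of Hsph1 (chr5:149636287-149636316, minus strand) holds the motif of 3 units. This match lies downstream, from 36 to 48 bases after the start site of 1 window and from 15 to 27 after that of the other. Capitals mark the motif matches.
Hspa1a: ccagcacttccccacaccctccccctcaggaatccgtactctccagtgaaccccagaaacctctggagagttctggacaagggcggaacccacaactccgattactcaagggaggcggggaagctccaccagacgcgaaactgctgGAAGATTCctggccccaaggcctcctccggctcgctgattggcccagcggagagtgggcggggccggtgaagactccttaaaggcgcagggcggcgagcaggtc
Hspa1b: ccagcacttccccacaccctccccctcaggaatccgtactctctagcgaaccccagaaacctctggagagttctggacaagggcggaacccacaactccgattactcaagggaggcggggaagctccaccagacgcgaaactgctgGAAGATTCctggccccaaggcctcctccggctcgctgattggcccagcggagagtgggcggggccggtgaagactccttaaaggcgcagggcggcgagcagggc
Hspb1: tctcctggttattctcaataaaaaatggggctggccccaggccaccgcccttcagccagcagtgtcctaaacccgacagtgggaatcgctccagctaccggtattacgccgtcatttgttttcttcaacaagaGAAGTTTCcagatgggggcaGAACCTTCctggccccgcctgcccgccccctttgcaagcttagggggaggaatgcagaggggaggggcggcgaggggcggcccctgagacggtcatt
Hspb7: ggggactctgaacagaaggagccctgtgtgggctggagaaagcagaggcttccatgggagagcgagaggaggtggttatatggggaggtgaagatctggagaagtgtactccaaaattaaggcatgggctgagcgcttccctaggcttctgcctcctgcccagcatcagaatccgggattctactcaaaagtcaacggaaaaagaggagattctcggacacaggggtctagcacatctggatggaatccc
Hsph1: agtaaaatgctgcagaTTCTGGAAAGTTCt
The sequences upstream of Hspa1a and Hspa1b differed at 3 of 250 bases, and their match GAAGATTC began 104 bases before the start site in both. Hspb1 held GAAGTTTC and GAACCTTC, and Bag3 held GAAGTTTC from 42 to 49 bases after its start. No match was found in the windows of Dnajb1 and Hspb7. A match is a string of letters and not a measured binding site.

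The members spanned a wide range of levels. On the scale of CPM (counts scaled to a library of equal size, with TMM) per kilobase of exonic length, Cryab stood highest at 706 ± 173 (SD, n = 15 mice) and Hspb7 next at 299.9 ± 116. Bag3 (76.9 ± 19.98), Hspb1 (66.8 ± 16.8) and Hspa8 (57.3 ± 7.94) followed, and their ranges over mice overlapped, so that their order was not separated by the spread. Hsph1 (12.9 ± 2.03) and Hsp90aa1 (5.44 ± 0.750) came next, each with no overlap with its neighbours. Dnajb1 (2.56 ± 0.595), Hspa1a (1.94 ± 0.570) and Hspa1b (1.19 ± 0.484) stood lowest, with overlapping ranges. Cryab was above Hspb7 in 14 of 15 mice, Hspb7 was above Bag3 in 15 of 15 and Hspa1a was above Hspa1b in 14 of 15. In all 4 groups Cryab had the highest mean per kilobase and Hspb7 the next, while Hspa1b had the lowest. This order is one of uniquely aligned reads over the full exonic length. Stretches of 50 bases also found in other genes made up 60.3% of Hspa1a, 62.3% of Hspa1b and 58.5% of Hsp90aa1. They made up 51.4% of Hspa8 and 51.6% of Hspb1, against 0.4% or less of the other members. How far this lowered the levels of these genes was not tested.

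**Figure D1:**
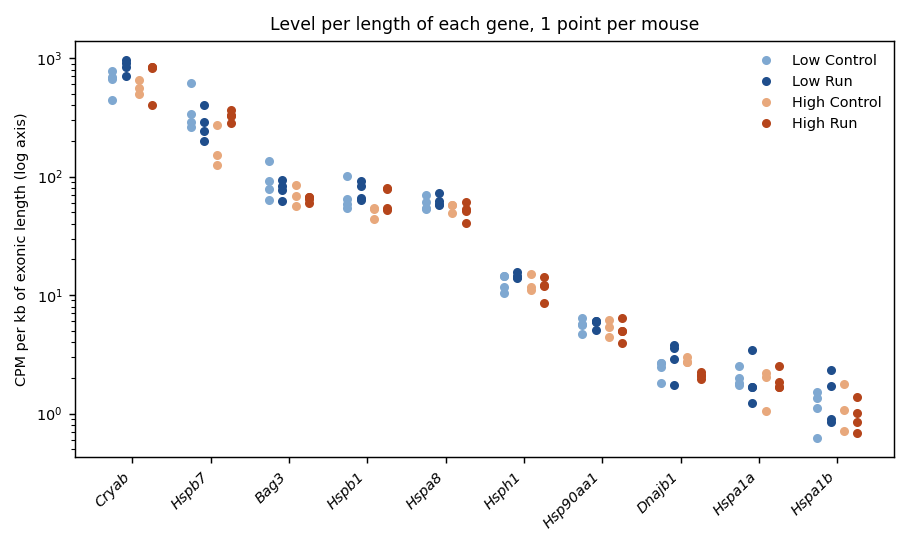
CPM per kilobase of exonic length (log axis) of the 10 genes, ordered by their mean over 15 mice, with 1 point per mouse and the groups in colour. Levels run from Cryab, with a mean of 706, to Hspa1b, with a mean of 1.19, and the groups overlap for most genes.

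Library totals ran from 19395125 to 30699216 counts, and the fewest counts of any member in a mouse were 42, for Hspa1b. All 8 markers of muscle fibres, such as Acta1 and Ckm, were detected in every mouse, with a summed level from 118210 to 184490 CPM. Low Control mouse D9 and High Run mouse D62 stood apart on the first principal component (27.92% of the variance), at -90.34 and -58.14, while the other mice lay between -19.73 and 27.82. Values without these 2 mice are given where they changed the call of a member or the counts over its machinery. At an FDR of 0.1 edgeR called 0 genes in each of the 6 comparisons, members included. DESeq2 called 9 genes higher and 2 lower for Low Run against Low Control, 9 and 6 for High Run against High Control, 0 and 1 for the Frailty × Run interaction, 67 and 39 for running averaged over both frailty groups, 1 and 1 for High Control against Low Control, and 0 for High Run against Low Run, and no member was among them. All differences below are therefore reported at an unadjusted p, and by edgeR none passed the correction over all genes tested. The paper, with DESeq2, reported Fosb, an immediate early gene named below, as lower after running in High mice at an FDR under 0.1.

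At 24 h after running in Low mice, no member was called. Differences were not excluded, for the 95% intervals of the members by edgeR reached down to -1.02 and up to 1.13 (log2). Log2 fold changes ranged from -0.41 for Hspb7 to 0.42 for Cryab, with a median of 0.10 (all genes tested, 0.02). Among the 10 genes, 0 had an unadjusted p under 0.05 by edgeR, against 13.4% of all genes tested (FDR, 0% called), and the smallest FDR was 0.399. That share of all genes was 5.03% without D9 and 7.44% without D57. CPM of Low Run and Low Control mice overlapped for all 10 members, against 6.93% of tested genes without overlap. Values were positive for 8 of 10 members and for 5 of 10 after offsets for gene length and GC content.

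In High mice, Hspb7 and Dnajb1 were the members whose Run and Control mice did not overlap, in opposite directions. Hspb7 was 1.77-fold higher after running, and Dnajb1 was lower at 0.748 of the control level. Of the 10 members, 1 (Hspb7) had an unadjusted p under 0.05 by edgeR, against 5.18% of all genes tested (FDR, 0% called), and the smallest FDR was 0.956. No overlap held for 2 of 10 members against 7.07% of genes. The median log2 fold change was -0.07 (all genes, 0.05), with 4 members above 0 and 6 below.

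The difference between the 2 responses, the Frailty × Run interaction, had an unadjusted p under 0.05 for 2 of 10 members (Hspb7 and Dnajb1), against 7.93% of genes (FDR, 0% called), and the smallest FDR of a member was 0.600. Running averaged over both frailty groups had 1 of 10 (Cryab), against 8.63% (FDR, 0% called). High Control against Low Control had 1 of 10 (Hspb7), against 5.86% (FDR, 0% called), and 2 of 10 without overlap (Dnajb1 and Hspb1), against 10.4%. High Run against Low Run had 1 of 10 (Dnajb1), against 2.51% (FDR, 0% called), with 0 of 10 without overlap against 1.5%. Single mice moved these shares of all genes by more than 1.5 times. Without the mouse in turn, the share was 3.37% in High mice without D67, 4.66% (D9), 4.76% (D67), 5.16% (D62) and 14.1% (D53) for the interaction, 2.63% (D9), 2.94% (D25), 3.15% (D67) and 10.7% (D98) between Control groups and 5.84% (D53) between Run groups. These comparisons share mice, so their counts are not independent of each other.

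**Figure D2:**
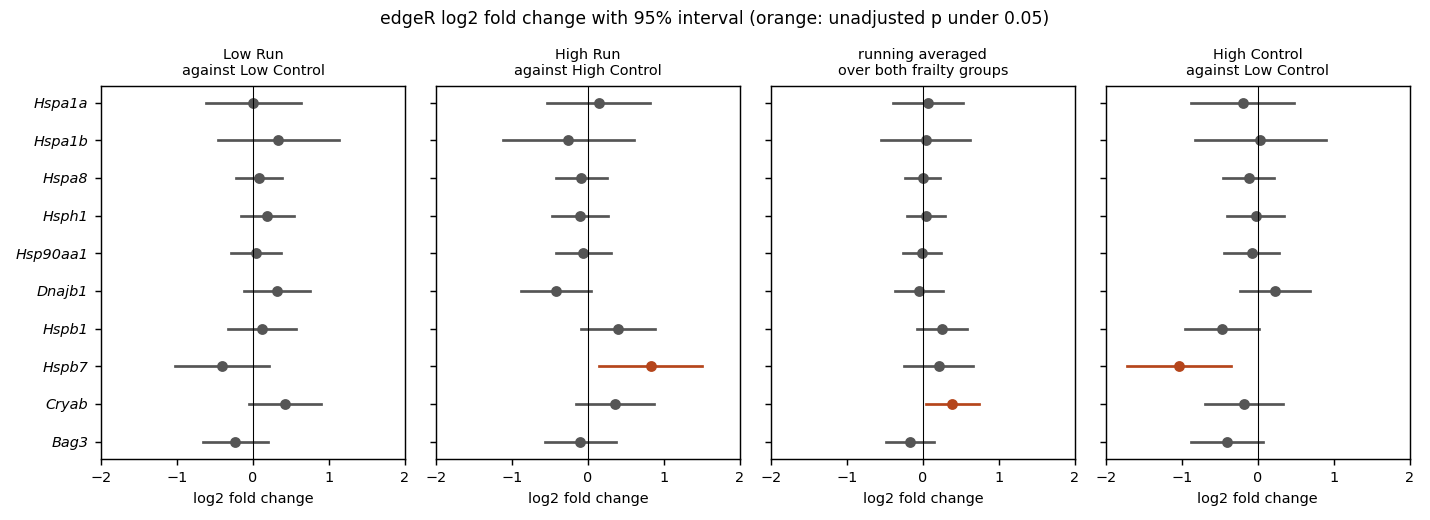
edgeR log2 fold change (points) with its 95% interval (lines) of the 10 genes in 4 comparisons, orange where the unadjusted p was under 0.05. The orange points are Hspb7 in High mice (0.82) and between Control groups (-1.03), and Cryab for running averaged over both frailty groups (0.39).

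Hspa1a (ENSMUSG00000091971, chr17:34969190-34972156) and Hspa1b (ENSMUSG00000090877, chr17:34956436-34959238) encode the stress-inducible Hsp70, each from 1 exon on the minus strand of GRCm38. Of the stretches of 50 bases in Hspa1a, 58.8% also occur in Hspa1b, and only uniquely aligned reads were counted, so each gene is given with their sum. Gm20481 overlaps Hspa1a on the opposite strand. Hspa1a was at 7.42, 5.38, 5.17 and 5.87 CPM in Low Control mice D8, D9, D11 and D98, and at 5.00, 10.2, 3.67 and 5.01 CPM in Low Run mice D57, D61, D66 and D68. It was at 5.99, 3.10 and 6.51 CPM in High Control mice D23, D25 and D67, and at 4.98, 5.46, 7.45 and 4.95 CPM in High Run mice D49, D52, D53 and D62. The groups overlapped throughout, and D61 was the highest of all mice. Hspa1b ranged from 1.74 to 4.29 CPM in Low Control, 2.40 to 6.56 in Low Run, 1.99 to 4.98 in High Control and 1.92 to 3.89 in High Run mice. Their summed level was 9.20 ± 1.83 CPM in Low Control (SD over mice), 10.02 ± 4.49 in Low Run, 8.53 ± 3.22 in High Control and 8.47 ± 1.97 in High Run mice. The log2 difference of the sum was 0.06 in Low mice (two-sided exact permutation p = 0.857) and 0.04 in High mice (p = 0.971, exact permutation), as differences of mean log2 values, whose sign in High mice is opposite to that of the means in CPM. By edgeR, the 95% interval for Hspa1a was -0.62 to 0.63 in Low mice and -0.54 to 0.82 in High mice. Differences within these limits were not excluded with these numbers of mice.

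Hspa8 (ENSMUSG00000015656, chr9:40800984-40810087), the constitutive Hsp70 that uncoats clathrin vesicles and feeds chaperone-mediated autophagy, was at 256 ± 33.0 CPM in Low Control, 270 ± 28.5 in Low Run, 235 ± 21.9 in High Control and 222 ± 37.8 in High Run mice. On the log2 scale it differed by 0.08 in Low mice (95% interval -0.23 to 0.38) and -0.09 in High mice (-0.42 to 0.25), and -0.28 for High Run against Low Run (95% interval -0.59 to 0.02). Hsph1 (ENSMUSG00000029657, chr5:149614287-149636376) was at 93.0 ± 14.5 CPM in Low Control, 106 ± 4.99 in Low Run, 91.4 ± 16.5 in High Control and 85.1 ± 17.1 in High Run mice. All 4 Low Run mice were above the mean of the Low Control mice and 1 of 4 High Run mice was above that of High Control mice, and the log2 fold changes were 0.19 (95% interval -0.16 to 0.53) and -0.10 (-0.48 to 0.27). Of the stretches of 50 bases in Hspa8, 51.4% occur in other genes, mostly in Gm15459, which was itself counted at 107 ± 15.2 CPM in Low Control mice, whereas Hsph1 shares none.

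Dnajb1 (ENSMUSG00000005483, chr8:83608193-83612653, plus strand) encodes the main J-domain partner of inducible Hsp70. It was at 8.55, 7.91, 8.54 and 5.83 CPM in Low Control mice D8, D9, D11 and D98, and at 5.63, 12.0, 9.16 and 11.5 CPM in Low Run mice D57, D61, D66 and D68. It was at 8.69, 9.64 and 8.67 CPM in High Control mice D23, D25 and D67, and at 6.30, 6.64, 7.22 and 6.77 CPM in High Run mice D49, D52, D53 and D62. Of the Low Run mice, 3 of 4 were above every Low Control mouse and 1 was below, whereas all 4 High Run mice were below every High Control mouse. The log2 fold change was 0.32 in Low mice (SE 0.20, unadjusted p = 0.138 by edgeR) and -0.42 in High mice (SE 0.22, unadjusted p = 0.0726 by edgeR, two-sided exact permutation p = 0.0286, the smallest that 3 against 4 mice allow). The interaction was -0.73 (SE 0.30, unadjusted p = 0.0252, FDR 0.600 by edgeR, exact permutation p = 0.0335). Its unadjusted p was above 0.05 without Low Control mouse D98, Low Run mouse D61 or D68, or High Control mouse D25, with log2 values from -0.68 to -0.60, and it was -0.75 without D9 and D62, still under 0.05. High Run against Low Run was -0.51 (SE 0.20, unadjusted p = 0.0231, FDR 0.999 by edgeR, exact permutation p = 0.143), and it was -0.38 without D61 and -0.42 without D68, both with an unadjusted p above 0.05.

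Bag3 (ENSMUSG00000030847, chr7:128523616-128546981, plus strand), the co-chaperone that hands damaged filamin to selective autophagy, was at 237 ± 79.9 CPM in Low Control, 202 ± 33.7 in Low Run, 179 ± 37.0 in High Control and 166 ± 8.82 in High Run mice. Mouse D9 had its highest level at 348 CPM, and 2610306O10Rik overlaps the gene on the same strand. Only 1 of 8 Run mice was above the Control mean of its frailty group, with log2 fold changes of -0.23 in Low (95% interval -0.66 to 0.20) and -0.10 in High mice (-0.57 to 0.37). Without D9 the Low Control mean was 199.8 ± 37.1 CPM (n = 3), 2 of 4 Low Run mice were above it and the log2 fold change was 0.003, so its sign in Low mice rested on D9. Hsp90aa1 (ENSMUSG00000021270, chr12:110690605-110702728, minus strand), the inducible cytosolic Hsp90 that also folds muscle myosin, stayed between 15.4 and 25.4 CPM in all 15 mice, with log2 fold changes of 0.04 in Low (95% interval -0.30 to 0.37) and -0.06 in High mice (-0.42 to 0.30). Of its stretches of 50 bases, 58.5% occur in other genes, mostly in Gm12346.

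Hspb7 (ENSMUSG00000006221, chr4:141420779-141425311, plus strand), a small heat shock protein of heart and skeletal muscle that binds filamin C, showed the widest spread, with a highest mouse 4.93-fold above the lowest. It was at 930, 1718, 797 and 724 CPM in Low Control mice D8, D9, D11 and D98, and at 558, 671, 801 and 1115 CPM in Low Run mice D57, D61, D66 and D68. It was at 761.5, 348 and 420 CPM in High Control mice D23, D25 and D67, and at 895, 912, 792 and 1012.5 CPM in High Run mice D49, D52, D53 and D62. All 4 High Run mice were above the highest High Control mouse, by a narrow margin over D23, while Low Run and Low Control mice overlapped. The log2 fold change was 0.82 in High mice (SE 0.32, unadjusted p = 0.0206, FDR 0.956 by edgeR, two-sided exact permutation p = 0.0286) and -0.41 in Low mice (SE 0.29, unadjusted p = 0.181 by edgeR). The interaction was 1.23 (SE 0.43, unadjusted p = 0.0117, FDR 0.600 by edgeR, exact permutation p = 0.0224). In the cage-sedentary mice Hspb7 was lower in High than in Low, with a log2 fold change of -1.03 (SE 0.32, unadjusted p = 0.00567, FDR 0.704 by edgeR, exact permutation p = 0.0571), while the Run groups differed by 0.20 (95% interval -0.42 to 0.82). Without D9, the highest mouse, and D62, these values were 0.76 in High mice, 0.82 for the interaction and -0.69 between Control groups, all with an unadjusted p under 0.05 and an FDR of at least 0.634 by edgeR. The difference in High mice was 0.61 without High Control mouse D25 and 0.70 without D67, with an unadjusted p above 0.05 in both.

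Cryab (ENSMUSG00000032060, chr9:50751325-50756636, plus strand) encodes alpha B-crystallin, which holds desmin and titin at the Z-disc. It was at 976, 651, 1017 and 1148 CPM in Low Control mice D8, D9, D11 and D98, and at 1342, 1038, 1244 and 1435 CPM in Low Run mice D57, D61, D66 and D68. It was at 964, 729.5 and 823 CPM in High Control mice D23, D25 and D67, and at 1219.5, 1232.5, 1242.5 and 595 CPM in High Run mice D49, D52, D53 and D62. Of the 8 Run mice, 6 were above every Control mouse of their frailty group and 7 were above its mean, the exception being D62, which had the lowest level of all 15. The log2 fold change was 0.42 in Low mice (SE 0.22, unadjusted p = 0.0809 by edgeR, exact permutation p = 0.0571) and 0.35 in High mice (SE 0.24, unadjusted p = 0.163 by edgeR, exact permutation p = 0.4). Averaged over both frailty groups it was 0.39, or 1.31-fold (SE 0.17, unadjusted p = 0.0329, FDR 0.555 by edgeR, exact permutation p = 0.0702), and the interaction was -0.06 (95% interval -0.76 to 0.63). Without D9 and D62 the average was 0.40 (SE 0.10, unadjusted p = 0.000888, FDR 0.229 by edgeR), with 0.26 in Low (FDR = 0.650) and 0.55 in High mice (FDR = 0.424, edgeR). High Control against Low Control was -0.18 (unadjusted p = 0.475 by edgeR). Without D9 and D62 it was -0.33 (unadjusted p = 0.0357, FDR 0.996 by edgeR). The average was 0.28 with offsets for gene length and GC content and between 0.30 and 0.38 when D9, D57, D68, D25, D67, D49, D52 or D53 was left out, each with an unadjusted p above 0.05. Hspb2, another small heat shock protein gene, overlaps Cryab on the opposite strand and was at 63.5 ± 15.2 CPM in Low Control mice. The deposited counts are of the same strand, by the study's methods.

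Hspb1 (ENSMUSG00000004951, chr5:135887919-135889563, plus strand), an actin-capping small heat shock protein, was at 72.4 ± 22.3 CPM in Low Control, 78.6 ± 14.2 in Low Run, 52.1 ± 6.27 in High Control and 68.4 ± 15.7 in High Run mice. All 4 High Run mice were above the High Control mean and 2 were above every High Control mouse, with a log2 fold change of 0.39 (95% interval -0.09 to 0.88). Every High Control mouse was below every Low Control mouse, with a log2 fold change of -0.47 (SE 0.23, unadjusted p = 0.0552 by edgeR, exact permutation p = 0.114). The margin was narrow, with D23 at 56.1 CPM and Low Control mouse D11 at 56.5 CPM, and the log2 fold change was -0.24 without D9. In Low mice it was 0.12, and 0.35 without D9, with all 4 Low Run mice above the Low Control mean of the 3 remaining mice. For running averaged over both frailty groups it was 0.26, and 0.31 without D9 and D62, where its unadjusted p was under 0.05 (FDR = 0.435, edgeR). Of the stretches of 50 bases in Hspb1, 51.6% occur in Hsp25-ps1, counted at 64.2 ± 21.3 CPM in Low Control mice. In whole-muscle RNA, fewer cells of a type and less RNA per cell cannot be told apart, and this holds for each level given here.

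**Figure D3:**
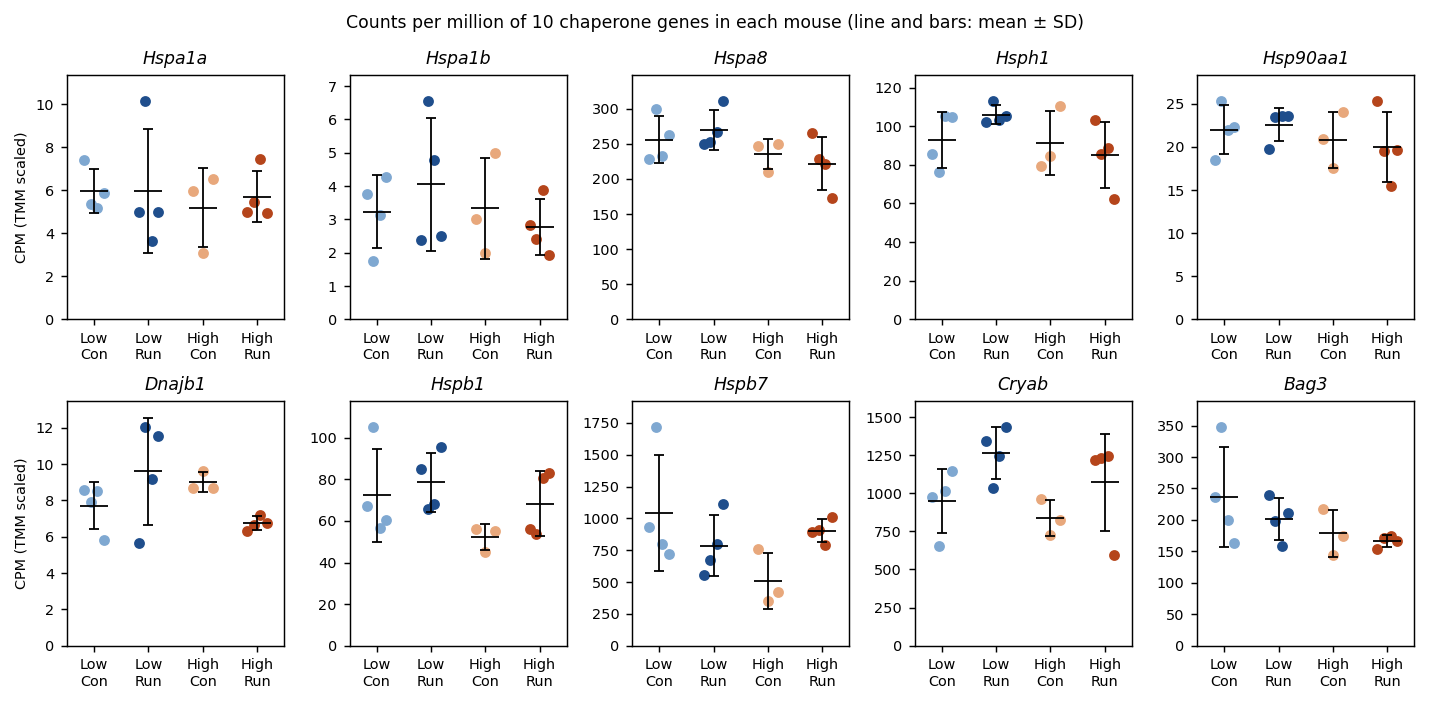
CPM (y axis, from 0) of each gene in every mouse, with 1 panel per gene, points for mice and the line and bars for mean ± SD. The 4 High Run mice of Hspb7 lie above, and those of Dnajb1 below, all High Control mice, and 1 High Run mouse of Cryab lies at 595, far below the others.

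**Figure D4:**
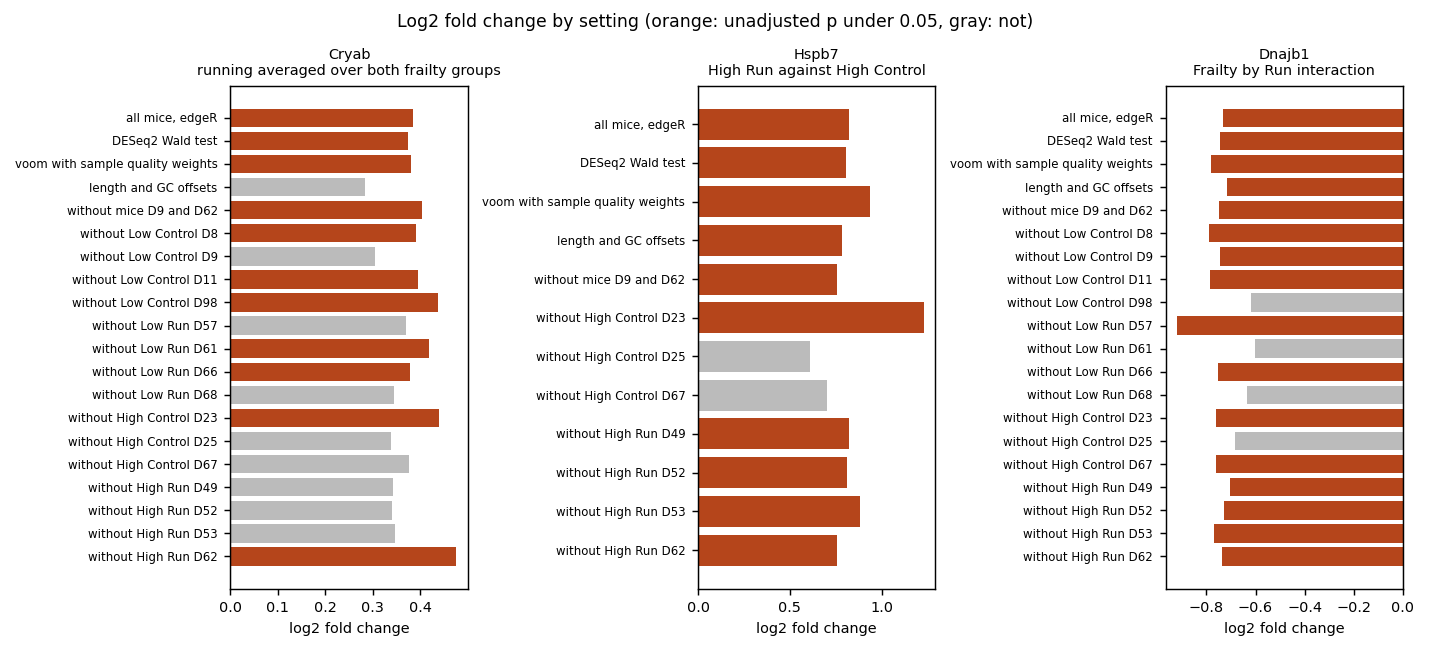
Log2 fold change (x axis) by setting (y axis) of Cryab for running averaged over both frailty groups, Hspb7 for High Run against High Control and Dnajb1 for the Frailty × Run interaction, orange where the unadjusted p was under 0.05. All bars keep their direction, and gray bars mark the settings, mostly single mice left out, in which p was no longer under 0.05.

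Of 85 other genes of the same machinery that were tested, 0 passed an FDR of 0.1 by edgeR. At an unadjusted p under 0.05 there were 15 (17.6%) in Low mice, 1 (1.18%) in High mice and 6 (7.06%) for the interaction, against 13.4%, 5.18% and 7.93% of all genes tested. The counts in Low mice and for the interaction rested on Low Control mouse D9, for without it they were 2 of 85 (Sdf2l1 and Hsf2bp) and 0 of 85, and without D9 and D62 they were 4 and 0. The shares of all genes tested fell as well. They were 5.03% and 4.66% without D9, and 7.33% and 4.42% without D9 and D62. Of the heat shock factors and regulators, 5 of 6 were tested. Hsf1, the master regulator, differed by 0.09 in Low (edgeR FDR = 0.751) and -0.09 in High mice (FDR = 0.976). Hsf2, a related factor, differed by -0.77 in Low mice (FDR = 0.358, edgeR) and 1.10 in the interaction (FDR = 0.600), both at an unadjusted p under 0.05. Mouse D9 had 108 CPM and the lowest Low Control mouse 32.7 CPM, and without D9 the values were -0.20 and 0.53, neither at that p. Hsf2bp, which binds Hsf2, was at 0.97 for running averaged over both groups, also under 0.05 (FDR = 0.536, edgeR). None of the 8 other Hsp70 and Hsp110 genes of the cytosol had an unadjusted p under 0.05 in the 4 comparisons of running. Of 18 Hsp70 co-chaperones, 1 was higher (Hspbp1, a nucleotide exchange factor, 0.42) and 1 lower (Dnajc5, a J-domain protein of vesicles, -0.33) in Low mice at that p, and 0 in High mice. Stub1, the ubiquitin ligase partner of Hsp70, was at 0.30 in Low (FDR = 0.411) and -0.08 in High mice (FDR = 0.979), and Dnajb6, a J-domain protein of the Z-disc, at -0.28 (FDR = 0.447) and 0.19 (FDR = 0.964, all by edgeR).

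Of 13 genes of Hsp90 and its co-chaperones, Fkbp5, a glucocorticoid-induced Hsp90 partner, was lower (-1.85) and Ahsa1, an activator of the Hsp90 ATPase, higher (0.29) in Low mice at an unadjusted p under 0.05, and the Fkbp5 interaction was 2.81 (FDR = 0.600, edgeR). Fkbp5 ranged from 62.6 to 483 CPM within Low Control mice, the highest being D9, and D62 had 410 CPM. Without D9 the value in Low mice was -1.05, and without D9 and D62 the interaction was 0.82, neither with an unadjusted p under 0.05. Hsp90ab1, the constitutive Hsp90, was at -0.07 in Low (FDR = 0.851) and 0.14 in High mice (FDR = 0.965, both edgeR). Of 7 other small heat shock protein genes, 5 were tested. All 5 had positive values in Low mice (0.24 to 0.68), of which Hspb3 (0.68, FDR = 0.361, edgeR) had an unadjusted p under 0.05. Hspb8, the partner of Bag3, was at 0.36 in Low (FDR = 0.387) and -0.05 in High mice (FDR = 0.987), and at -0.51 for High Run against Low Run, where its unadjusted p was under 0.05 (FDR = 0.999, all by edgeR).

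Of 11 partners and clients of chaperone-assisted selective autophagy, 3 were lower in Low mice at an unadjusted p under 0.05 and 0 in High mice. These were Flnc (-0.78), the filamin that Bag3 complexes dispose of, Xirp1 (-1.13), an actin-binding protein found at myofibril damage, and Synpo (-0.66), each with an FDR of 0.358 by edgeR. The share of 3 in 11 stands beside 13.4% of all genes. Without D9 it was 0 of 11, beside 5.03% of all genes, with -0.46 for Flnc, -0.57 for Xirp1 and -0.38 for Synpo. Flnc was at 1915 ± 808 CPM in Low Control, 1117 ± 279 in Low Run, 989 ± 404 in High Control and 1357 ± 507 in High Run mice, with an interaction of 1.23 (SE 0.48, FDR = 0.600 by edgeR) and a difference of -0.95 between Control groups (FDR = 0.704, edgeR), both at an unadjusted p under 0.05. Without D9 and D62 the interaction of Flnc was 0.68 and the difference between Control groups -0.63, neither at that p. Synpo2, the link of Bag3 to membrane fusion, was at 0.11 in Low (FDR = 0.843, edgeR) and -0.31 in High mice (FDR = 0.958, edgeR).

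Of 14 chaperonin and prefoldin subunit genes, Pfdn6 (0.35) and Pfdn1 (0.33) were higher in Low mice at an unadjusted p under 0.05 and 0 in High mice, and the Pfdn1 interaction was -0.48. Of 14 chaperone genes of the endoplasmic reticulum, Sdf2l1 (0.81) was among 2 higher, and Hyou1 (-0.43) and Dnajc3 (-0.41) were the 2 lower, in Low mice, Manf (0.38) was the 1 higher in High mice, and Sdf2l1 (0.49), Pdia6 (0.26) and Manf (0.26) were the 3 higher with running averaged over both groups. Hyou1 (0.60) and Canx (0.56) were the 2 with an interaction. All these p were unadjusted, by edgeR.

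Markers of other cells and states differed at an unadjusted p under 0.05 in the same comparisons, and their part in the chaperone values was not tested. Over all genes tested, that p was reached by 13.4% in Low mice, 5.18% in High mice and 7.93% for the interaction. The share was 8.63% for running averaged over both frailty groups, 5.86% between Control groups and 2.51% between Run groups. In High mice, 3 of 6 slow fibre genes (Tnni1 0.93, Tnnc1 0.82 and Tnnt1 0.65) were higher at an unadjusted p under 0.05 by edgeR, with a summed level of 1396 to 2222 CPM in High Control and 1633 to 4101 in High Run mice, D62 having the highest. Without D62, 1 of these 3 (Tnni1, 0.68) was still under 0.05. In Low mice 0 of 6 were, with 1614 to 2675 CPM in Low Control and 1753 to 3254 in Low Run mice. The fast myosin gene Myh4 was lower in Low (-0.48) and High mice (-0.44), the 1 of 8 muscle fibre genes under 0.05 in each. Macrophage genes were higher for 2 of 7 in Low and 4 of 7 in High mice (Cd68 1.01, C1qb 0.87 and Lyz2 0.82), with sums of 97.4 to 188 CPM in Low Control, 169 to 227 in Low Run, 86.8 to 133 in High Control and 114 to 254 in High Run mice. C1qa, counted in both, was not under 0.05 in Low mice without D8, D9 or D57. In High mice neither C1qa nor C1qb was under 0.05 without D23. All 5 erythroid genes were higher in High mice (1.87 to 2.32), with 312 to 488 CPM in High Control and 385 to 3860 in High Run mice, and 0 of 5 in Low mice. Their interaction was positive and under 0.05 for 5 of 5 (median 3.25), as was High Run against Low Run (median 1.76), and 3 of 5 were lower in High Control than in Low Control mice (list median -1.51). High Run mouse D53 held the 3860 CPM. Without D53, Hba-a2 (1.17), Hbb-bs (1.185) and Hbb-bt (1.27) were no longer under 0.05 in High mice. Between Run groups these genes and Alas2 were not under 0.05 without D53. Between Control groups Alas2 and Hbb-bs were not under 0.05 without Low Control mouse D11 (2380 CPM). Of 12 immediate early genes, 6 were lower in High mice (Fosb -3.25, Egr1 -2.25 and Fos -2.16), with 639 to 1176 CPM in High Control and 288 to 625 in High Run mice, and 0 in Low mice. For the interaction 3 of 12 were lower (list median -0.91), for High Run against Low Run 6 of 12 (list median -0.85), and between Control groups 0 of 12. The 0 in Low mice and between Control groups rested on Low Control mouse D8, with 1670 CPM against 422 to 902 in the others. Without D8, Egr1 (1.45), Fos (1.30) and Fosb (2.62) were higher in Low mice at an unadjusted p under 0.05. Between Control groups these genes were also higher at that p without D8, at 1.52, 1.405 and 2.91. Of 4 adipocyte genes, 2 were lower in Low mice (Lep -1.65 and Cidec -1.04), and of 4 satellite cell genes 1 was higher in High mice (Myog 1.64, and 0.85 without D62, no longer under 0.05), while 0 of 5 neutrophil, endothelial and fibroblast genes each passed that p in Low or High mice. Neutrophil genes summed to 360 CPM in Low Run mouse D68, against 11.1 to 15.7 CPM in the other 3 Low Run mice. For running averaged over both groups, 3 of 6 slow fibre, 4 of 7 macrophage and 1 of 4 satellite cell genes were higher at that p. Lower were 3 of 4 adipocyte genes, 1 of 8 muscle fibre genes (Myh4 -0.46) and 4 of 12 immediate early genes. Of the latter, Fosb, Egr1 and Fos were not under 0.05 without D8. Erythroid, neutrophil, endothelial and fibroblast genes had 0 of 5 each. Of all these markers, 1 neutrophil gene (Ly6g) was at 0 in some mice, and the others were detected in every mouse.

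Correlations between members over mice depended in part on D9 and D62. Of 45 pairs of members, 33 had a positive Pearson r of log2 CPM over the 15 mice, between -0.35 and 0.67 with 0.16 as the median. Hspa8 and Hsp90aa1 had the highest r (0.67, Spearman's rho 0.84, and 0.75 without D9 and D62), and Hspb1 and Hspb7 had 0.66 (0.47 without them). Hsph1 and Cryab had 0.66 but 0.26 without D9 and D62, whereas Cryab with Hspb1 went from 0.0078 to 0.75 and Cryab with Hspb7 from -0.012 to 0.72. Without these 2 mice 35 of 45 pairs were positive, between -0.30 and 0.75 with 0.18 as the median. The genes outside the 10 that were most like the mean of their standardized log2 CPM were Hspb6 (r = 0.80), a small heat shock protein of muscle, Irx3 (0.78), Vav1 (0.77), Stambpl1 (0.77) and Rab44 (0.76), over 15 mice that share libraries and depth with the members. Spearman's rho was lower, at 0.58 for Hspb6 and from 0.44 (Rab44) to 0.65 (Irx3) for the others. Hspb6 kept a Pearson r of 0.80 within groups and 0.83 without D9 and D62. It was at 1248.5 ± 145 CPM in Low Control, 1475 ± 230 in Low Run, 1189 ± 243 in High Control and 1234.5 ± 285 in High Run mice. These correlations are descriptions, chosen as the highest among all genes tested.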

How the data were processed

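The authors aligned the reads of polyA RNA libraries from powdered gastrocnemius with STAR 2.7.9a to mm10 and, with featureCounts and Ensembl annotation, deposited counts of uniquely aligned proper pairs per non-mitochondrial gene, without normalization. Per the submitters' processing notes the tools included Subread 2.0.3 and DESeq2 1.32.0. A deposited table of transformed values was not used. The 10 members and all gene lists were chosen with earlier results of these data known. The labels name no shared litter, day or pairing.

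The tests used edgeR 4.0.16 in R 4.3.3 (filterByExpr, TMM, quasi-likelihood F-test, 1 mean per group, all 15 mice), with Benjamini-Hochberg FDR over the 16920 genes tested. Symbols and positions came from GENCODE M21 on GRCm38 (55104 of 55450 IDs matched). CPM used TMM-scaled totals, which ran from 19395125 to 30699216 counts before scaling. Exact permutation tests, two-sided, were run on log2(CPM + 0.5) in Python 3.11.15 with SciPy 1.17.1, over all 70 arrangements of 4 against 4 or all 35 of 3 against 4 mice, so that 0.0286 was the smallest p between 2 groups. For the interaction and the average, run labels were rearranged within each frailty group, in 2450 arrangements. There were 60 tests of members and comparisons. Intervals are 95% intervals of the edgeR fit. Named were all members, 7 fixed partners, up to 3 genes per list and running comparison with the largest change at an unadjusted p under 0.05, and the 5 genes most correlated with the members. In addition Hspb2, Gm20481, 2610306O10Rik, Gm15459, Gm12346 and Hsp25-ps1 were named for overlap or shared sequence. The test was checked on simulated data with 200 genes changed by a log2 fold change of 2 for Low Run against Low Control over 16576 genes, where edgeR recovered 171 with 19 false calls. No outlying mouse was simulated, and the log2 values of the members reached only 1.23. The check therefore does not measure how often changes of the size reported here would be found. Alternatives were DESeq2 1.42.0, limma 3.58.1 voom with sample quality weights, RLE scaling, no filter or at least 10 counts in every mouse, only the groups compared, Hspa1a and Hspa1b summed, length and GC offsets, a pseudocount of 2 and each mouse left out. The fit without mice D9 and D62 was chosen after seeing the data. A list of marker genes is not reported here.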

Additional observations from a re-analysis of the deposited data

Results flagged for a closer look

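Among 30 comparisons of the highest or lowest mouse with the rest of its group (4 mice each), of which chance flags about 1 in 20, a mouse was flagged for 2 members. Cryab in High Run mouse D62 was at 595 CPM, while the other 3 High Run mice lay between 1219.5 and 1242.5 CPM. Hsp90aa1 in Low Run mouse D57 was at 19.8 CPM, while the other 3 lay between 23.5 and 23.6 CPM. Its level in D57 was within the range of all 15 mice, 15.4 to 25.4 CPM. For 2 members the response to running differed between Low and High mice at an unadjusted p under 0.05 by edgeR, with a Frailty × Run interaction of 1.23 for Hspb7 and -0.73 for Dnajb1. Both had an FDR of 0.600 over all genes tested.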

How the results depend on the processing

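No member passed an FDR of 0.1 in any of the alternatives, the smallest FDR being 0.145 with voom and quality weights and 0.229 without mice D9 and D62. Counts of members at an unadjusted p under 0.05 moved as follows. For Low Run against Low Control the count was 1 (Cryab) when only the groups compared were fitted. Over all genes that fit had 709 higher and 1080 lower of 15698 at that p in Low mice. In High mice it had 488 and 312 of 16297. For High Run against High Control it was 3 with voom (Dnajb1, Hspb7 and Cryab), 2 with length and GC offsets, 2 with only the groups compared and 2 without D9 and D62. For running averaged over both frailty groups it was 2 with voom (Hspb7 and Cryab), 0 with length and GC offsets and 2 without D9 and D62 (Hspb1 and Cryab). For High Control against Low Control it was 2 without a filter, 2 with voom, 2 with length and GC offsets and 2 without D9 and D62 (Hspb7 and Cryab). For High Run against Low Run it was 3 with voom and 2 with length and GC offsets. The counts over all genes moved too. With voom, 1357 of the 16920 genes were higher and 943 lower at that p in High mice (main fit, 555 and 322). These were 1236 and 719 (947 and 514) for running averaged over both groups. Between Control groups they were 700 and 878 (305 and 687), and between Run groups 507 and 353 (257 and 167). Without D9 and D62 the share of all genes was 6.85% in High mice, 9.79% for running averaged and 3.80% between Control groups. Leaving out each mouse in turn gave counts of 0 to 1 in Low mice (1 without D98 or D57), 0 to 2 in High mice (0 without D25 or D67, 2 without D62), 1 to 2 for the interaction (1 without D98, D61, D68 or D25), 0 to 1 for running averaged over both groups (0 without D57, D68, D25, D67, D49, D52 or D53), 1 to 3 between Control groups (3 without D98, 2 without D11 or D23) and 0 to 3 between Run groups (0 without D61 or D68, 3 without D49). The log2 difference of the summed Hspa1a and Hspa1b level, which passed no test, ranged from -0.21 to 0.17 in Low mice, -0.27 to 0.28 in High mice, -0.33 to 0.25 for the interaction, -0.11 to 0.17 for running averaged over both groups, -0.39 to 0.16 between Control groups and -0.31 to 0.094 between Run groups when each mouse was left out. With 1 mouse left out, the share of all genes at that p was 17.2% (D98) and 7.44% (D57) in Low mice. It was 4.83% (D62) in High mice and 3.69% (D49) between Run groups. The cause of these moves was not tested. No called value changed sign, but uncalled ones did for 6 members in Low mice and 6 in High mice. Over all genes, length and GC offsets turned the split at an unadjusted p under 0.05 from 555 higher and 322 lower to 440 and 608 in High mice, and from 947 and 514 to 700 and 802 for running averaged over both groups. Between Control groups the split went from 305 and 687 to 397 and 600, and between Run groups from 257 and 167 to 242 and 206. No paired analysis was possible because the mice carry no shared replicate numbers. Sampling noise was largest for Hspa1b, whose lowest count in a mouse was 42.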
